A study of Mus musculus with 20 samples.

Results

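The carbonic anhydrase genes considered here were 10 of the 55421 genes in the count table, namely Car1, Car2, Car3, Car4, Car5a, Car5b, Car8, Car9, Car13 and Car14, each found by its symbol. The group was chosen by its family name around Car14, and Car14 was selected on its 3-week values, having the smallest adjusted p of all genes when livers that received a guide against Hira were compared with controls at 3 weeks. Its values at 3 weeks are therefore given as a description and support nothing. The libraries were polyA RNA from whole liver of wildtype C57BL/6 mice, labelled female, that were injected at 6 months of age. One passage of the study's text names male mice for this time course, a figure legend names female datasets, and the labels are followed here. Every mouse, controls included, received AAV8 carrying SaCas9 under the Tbg promoter, which is active in hepatocytes only, with a guide from the U6 promoter. The guide was directed against Rosa26, a locus used as a cutting control, or against Hira, which encodes the chaperone that places histone H3.3 without DNA replication. Livers were taken 3 weeks or 6 months after injection, with 5 libraries in each of the 4 groups (Rosa26 3w, HIRA 3w, Rosa26 6m and HIRA 6m). The AAV reaches hepatocytes and the tissue was taken whole, so RNA of uninjected and non-parenchymal cells was counted with that of edited hepatocytes, and fewer cells of a type cannot be told apart from less RNA per cell.

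Carbonic anhydrases convert carbon dioxide and water into bicarbonate and a proton, and back. In the active members a zinc ion held by histidines carries out the reaction. The members differ mainly in where they sit: in the cytosol (Car1, Car2, Car3, Car13), in mitochondria (Car5a, Car5b), or on the outer face of the plasma membrane (Car4 by a lipid anchor, Car9 and Car14 by a membrane-spanning segment), while Car8 is a related protein without the enzyme activity. In liver, mitochondrial bicarbonate feeds the urea cycle and gluconeogenesis, and Car14 is known as a hepatocyte surface enzyme.

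The stretch of coding sequence below holds the codons of 2 of the zinc-binding histidines and is shown because it separates the active enzymes from Car8. It was read from the first GENCODE M21 transcript of each gene (GRCm38, the assembly behind mm10) and runs 5′ to 3′ on the coding strand, with the 2 codons at the histidine positions in capitals.
Car14: cagctcCACctgCACtggggt
Car9: cagttgCATctaCACtgggga
Car5a: cagtttCATttcCACtgggga
Car3: caattcCATcttCACtggggc
Car2: cagtttCACtttCACtggggc
Car8: gaagttAGAtttCACtgggga
The first capital codon encodes histidine (CAC or CAT) in each of the 9 other members, and is AGA, an arginine codon, in Car8. The stretch lies at chr3:95900303-95900323 in Car14 (minus strand) and at chr4:8221607-8221627 in Car8 (minus strand). Car14 itself spans chr3:95897768-95904691 on the minus strand, with 13 merged exons that cover 2543 bases. Car13, Car1, Car3 and Car2 lie between positions 14641727 and 14900770 of the same chromosome, far from Car14, and the others are on chromosomes 4 (Car8, Car9), 8 (Car5a), 11 (Car4) and X (Car5b).

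Library totals ran from 19916430 to 24079736 counts. In 19 libraries Xist had 6286 to 8436 counts and the 4 Y-linked genes examined had 0 to 13 together, while HIRA 6m replicate 5 had 9 and 2041, against its female label. The 6-month fold changes of the tested members and of several other genes are therefore also given without it. Hira itself stood at 6.04 to 8.54 CPM (read counts scaled to a common library size) in Rosa26 3w and at 4.15 to 5.95 in HIRA 3w (log2 fold change -0.48 ± 0.14 SE, adjusted p = 0.197 by edgeR). At 6 months its ranges were 4.82 to 7.32 and 4.96 to 6.51 CPM (-0.10 ± 0.14, adjusted p = 0.794, and -0.16 without HIRA 6m replicate 5). Cas9 cuts can leave a transcript that is still counted, so these values check the guide labels only in part. Hepatocyte markers dominated every library, at a summed 81799 to 160660 CPM over 6 genes, and adipocyte (0 to 6.05 CPM over 5 genes, Lep at 0 throughout) and skeletal muscle markers (0.273 to 4.46 CPM over 5 genes) were close to nothing. Erythroid markers summed to 48.3 to 285 CPM, cholangiocyte markers to 47.6 to 163, endothelial markers to 121 to 250, Kupffer cell markers to 79.5 to 1000 and neutrophil markers to 1.68 to 51.8 (3.07 to 51.8 in Rosa26 3w and 2.34 to 5.39 in HIRA 3w), and no gene of these lists passed the test in any comparison.

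Per kilobase of exon, Car3 was the most abundant member in every library. Its level, as mean ± SD over the 20 libraries, was 716 ± 423 CPM per kb, followed by the mitochondrial Car5a at 52.0 ± 12.7, Car8 at 24.7 ± 3.23 and Car14 at 15.5 ± 4.95. Car2 (4.77 ± 1.05), Car1 (1.90 ± 0.774) and Car5b (0.725 ± 0.0980) formed the next tier, and Car13 (0.188 ± 0.0941) and Car9 (0.182 ± 0.0851) were near the limit of detection. The order held in 20 of 20 libraries for each neighbouring pair other than Car2 over Car1, which held in 19, and Car13 over Car9, which held in 12. The exception for Car2 was HIRA 6m replicate 5. Car13 and Car9 did not differ beyond their spread, and they change places when the length of the first transcript is used in place of all exons. Car4, an enzyme of capillary and epithelial surfaces elsewhere, had 4 counts in all, in 3 libraries, and was below the minimum of 10 counts, so 9 of the 10 members were tested. In counts without a length correction, Car3 alone made up 77.3% to 96.4% of the members' reads, and the 10 genes together 0.0802% to 0.582% of a library.

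**Figure D1:**
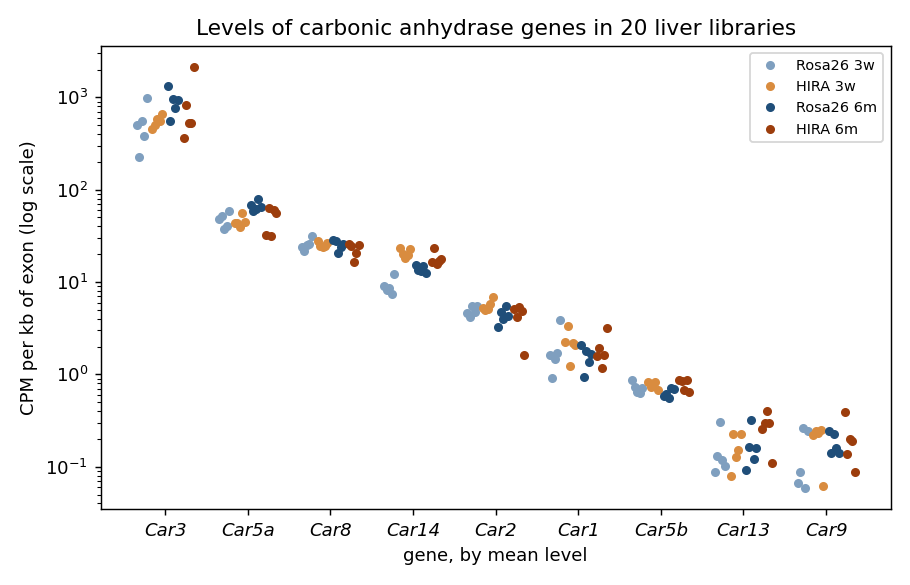
Level of each carbonic anhydrase gene in each of the 20 libraries, in CPM per kb of merged exon on a log scale, with points coloured by group and genes ordered by mean. Car3 sits apart at 226 to 2131 CPM per kb, Car14 spreads from 7.48 to 23.4 with the Rosa26 3w points lowest, and Car4 is left out because most of its values are 0.

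Car14 was higher in all 5 HIRA 3w livers than in any Rosa26 3w liver. Its level was 23.0, 21.1, 21.7, 19.0 and 31.4 CPM in Rosa26 3w replicates 1 to 5, from 422 to 675 counts. In HIRA 3w it was 59.2, 51.2, 46.5, 50.4 and 57.9 CPM, from 961 to 1284 counts. The lowest HIRA liver, at 46.5 CPM, was above the highest control, at 31.4, which was itself set apart from the other controls. The fold was 2.28 (95% interval 1.91 to 2.73, log2 fold change 1.19 ± 0.13 SE, adjusted p = 0.000106 by edgeR). This is the contrast by which Car14 was chosen, in which 0.197% of the 22867 genes tested passed an adjusted p of 0.05, 0.140% passed and were higher with the Hira guide, and 2.69% had groups that did not overlap.

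At 6 months Car14 was again higher in each HIRA liver than in each control, by less. The Rosa26 6m livers had 38.8, 34.6, 33.7, 37.8 and 31.7 CPM. The HIRA 6m livers had 41.9, 59.5, 39.4, 42.5 and 45.1 CPM. The groups did not overlap, but the lowest HIRA liver (39.4) was only just above the highest control (38.8), and replicate 2 lay well above the other 4. The fold was 1.29 (95% interval 1.08 to 1.54, log2 fold change 0.37 ± 0.12), which did not pass over all genes (adjusted p = 0.139 by edgeR). In this comparison 3.15% of genes had groups that did not overlap and 1.31% passed the test, 0.695% as higher with the Hira guide. An exact two-sided permutation test of the Car14 log2 CPM alone, over the 252 assignments of 10 libraries, gave p = 0.00794, the smallest value 5 against 5 can give, for a gene picked with its 3-week result known. Without HIRA 6m replicate 5 the log2 fold change was 0.38 (adjusted p = 0.140).

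**Figure D2:**
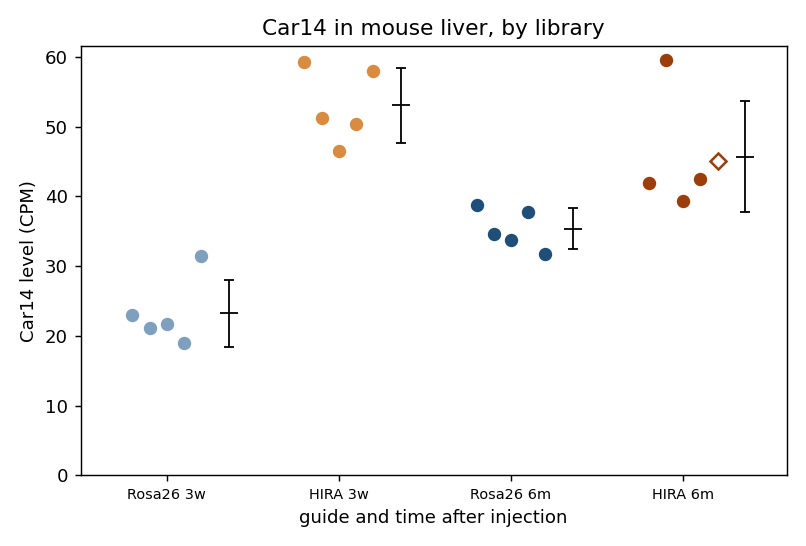
Car14 level in CPM (y axis, from 0) in each library of the 4 groups, with a bar for the group mean ± SD (n = 5) at the right of each group and HIRA 6m replicate 5 as an open diamond. Means were 23.2 ± 4.79, 53.0 ± 5.36, 35.3 ± 2.93 and 45.7 ± 8.00 CPM from left to right, and the Rosa26 3w livers lie lowest.

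The smaller difference at 6 months went with a higher level in the controls. Car14 was higher in every Rosa26 6m liver than in every Rosa26 3w liver, with a fold of 1.52 (95% interval 1.27 to 1.82, log2 fold change 0.60 ± 0.12, adjusted p = 0.0385 by edgeR), in a comparison where 0.324% of genes passed and 3.50% had groups that did not overlap. The margin was narrow, with 31.4 CPM in the highest library at 3 weeks and 31.7 in the lowest at 6 months. The call was lost when any one of Rosa26 3w replicates 1, 2, 3 or 4 or Rosa26 6m replicates 1, 3 or 4 was left out, with log2 fold changes of 0.54 to 0.62 and adjusted p of 0.0738 to 0.125. The HIRA groups overlapped, at 46.5 to 59.2 CPM at 3 weeks and 39.4 to 59.5 at 6 months. The change of the guide difference with time was -0.82 ± 0.17 on the log2 scale (95% interval -1.18 to -0.46), with an adjusted p of 0.614 by edgeR. No gene passed this test (0% of 22867, 1514 with an unadjusted p under 0.05, smallest adjusted p 0.614). DESeq2 likewise called 0 genes in it, and edgeR called 1 without HIRA 6m replicate 4. The control comparison and the change with time both use the 3-week control libraries by which Car14 was chosen, so neither is independent of that choice. From lowest to highest mean the order was Rosa26 3w, Rosa26 6m, HIRA 6m and HIRA 3w, and of the neighbours in this order only the 2 HIRA groups overlapped.

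None of the 8 other members tested passed at 3 weeks. Their log2 fold changes ran from -0.06 (Car5a) to 0.48 (Car9), and all 8 had groups that overlapped. The intervals bound what could have been missed: for Car8 the 95% interval was -0.26 to 0.23, for Car5b -0.15 to 0.37 and for Car5a -0.42 to 0.31, whereas for Car3 it was -0.75 to 0.88. The median over the 9 tested members, Car14 included, was 0.13 on the log2 scale, beside -0.01 over all genes tested. At 6 months no member passed, while Car14, Car5a and Car5b had an unadjusted p under 0.05 (3 of 9, beside 15.5% of all genes tested), and the median was 0.17 beside 0.03 over all genes. DESeq2 also called none of them at 6 months, where it gave no adjusted p for Car9 and Car13. In the control comparison of 6 months with 3 weeks, Car14 was the only member past the test, with a median of 0.20 beside 0.00.

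**Figure D3:**
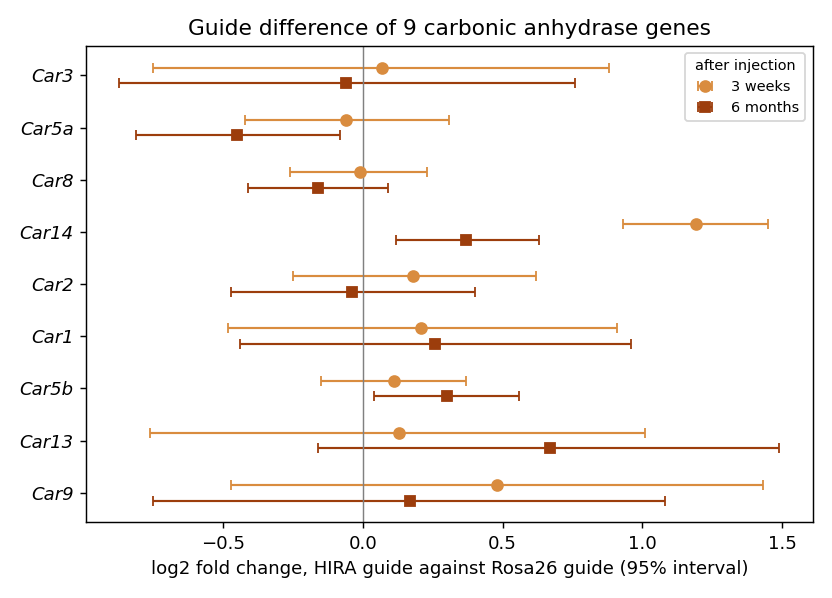
Log2 fold change of the Hira guide against the Rosa26 guide for the 9 tested genes, at 3 weeks (circles) and 6 months (squares), with 95% intervals from the edgeR fit of all 20 libraries. Car14 at 3 weeks, at 1.19, is the only point past the test, in the contrast by which Car14 was chosen. At 6 months the intervals of Car14, Car5a and Car5b leave out 0.

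The mitochondrial enzymes differed in opposite directions at 6 months, neither past the test. Car5a, the main liver isoform, had 91.3, 78.1, 82.2, 105 and 87.6 CPM in Rosa26 6m. In HIRA 6m it had 43.2, 85.5, 42.4, 81.5 and 74.1 CPM. Replicates 1 and 3 of HIRA 6m were at or below 43.2 and the other 3 at 74.1 to 85.5, which reached into the control range. The log2 fold change was -0.45 ± 0.18 (adjusted p = 0.218 by edgeR), and -0.49 (adjusted p = 0.169) without HIRA 6m replicate 5. At 3 weeks Car5a stood at 50.6 to 79.0 CPM in Rosa26 and 53.3 to 75.5 in HIRA, and its controls were higher at 6 months than at 3 weeks by 0.49 ± 0.18 on the log2 scale (adjusted p = 0.226). Car5b, the more widely expressed mitochondrial form, was at 3.71, 3.91, 3.57, 4.49 and 4.40 CPM in Rosa26 6m. It was at 5.51, 5.33, 4.31, 5.48 and 4.12 CPM in HIRA 6m. Here 3 HIRA libraries lay above all controls and replicates 3 and 5 among them, with a log2 fold change of 0.30 ± 0.13 (adjusted p = 0.248), or 0.36 (adjusted p = 0.145) without replicate 5. Car5a shares 314 exon bases with BC048644, which runs on the opposite strand and had 20.2% as many counts, and whether counting used strand is not given in the sources used here. BC048644 was at 15.1 to 26.1 CPM in Rosa26 6m and at 6.73, 17.5, 8.00, 13.7 and 18.3 CPM in HIRA 6m, lowest in replicates 1 and 3 as Car5a was, and its group means were 12.4 CPM in both 3-week groups. The part of its reads in the Car5a counts was not tested.

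Car3, the most abundant of the cytosolic enzymes, differed widely between livers of one group in 3 of the 4 groups. This isoform, known for weak activity, was at 1430, 646, 1569, 1083 and 2797 CPM in Rosa26 3w. In HIRA 3w it was at 1292, 1430, 1669, 1600 and 1897 CPM. The HIRA livers at 3 weeks all lay inside the control range, and the log2 fold change was 0.07 ± 0.39. At 6 months the controls had 3806, 1605, 2775, 2172 and 2714 CPM. HIRA 6m replicates 1 to 4 had 1036, 2396, 1509 and 1497 CPM, and replicate 5, the library with Y-linked counts, had 6107, above all other 19 libraries. With replicate 5 the log2 fold change was -0.06 ± 0.39 (adjusted p = 0.965), and without it -0.70 (adjusted p = 0.244), so that 1 library set the size of the difference. Genes of the male liver list, 6 in number, moved with that library, at a summed 3242 CPM in it and 25.8 to 103 CPM in the other 19, and 4 of the 6 passed the test at 6 months (1.31% of all genes), 1 without that library, 0 or 1 without any one of the Rosa26 6m replicates and 0 by DESeq2. The same library had the highest adipocyte marker sum, 6.05 CPM beside 0 to 1.94 in the other 19. The part of either in the Car3 values was not tested.

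Car2, the fast cytosolic enzyme of red cells and bile duct cells, was at 10.1 to 13.3 CPM in Rosa26 3w, 12.0 to 16.6 in HIRA 3w and 7.98 to 13.2 in Rosa26 6m. In HIRA 6m it was at 12.4, 10.2, 12.9, 11.7 and 3.96 CPM. Again replicate 5 was set apart, this time below all other 19 libraries, and the log2 fold change at 6 months was -0.04 ± 0.21 with it and 0.17 without it. The cholangiocyte marker sum of that library was also the lowest of all, at 47.6 CPM beside 62.4 to 163 in the other 19. So were its Kupffer cell sum (79.5 beside 140 to 1000) and its neutrophil sum (1.68 beside 2.34 to 51.8). The part of these in its Car2 level was not tested. Car1, the other red cell enzyme, ranged from 1.15 to 4.79 CPM over the 20 libraries, with log2 fold changes of 0.21 ± 0.33 at 3 weeks and 0.26 ± 0.34 at 6 months (-0.01 without replicate 5). Erythroid markers summed to 48.3 to 131 CPM in Rosa26 3w and 54.1 to 129 in HIRA 3w, with overlapping ranges at 6 months too. Car13 had 4 to 22 counts a library and a log2 fold change of 0.67 ± 0.40 at 6 months (adjusted p = 0.445, and 0.86 without HIRA 6m replicate 5), where its counts were 5, 8, 17, 6 and 8 in Rosa26 and 15, 15, 22, 14 and 5 in HIRA. The 95% interval of that difference was -0.16 to 1.49.

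**Figure D4:**
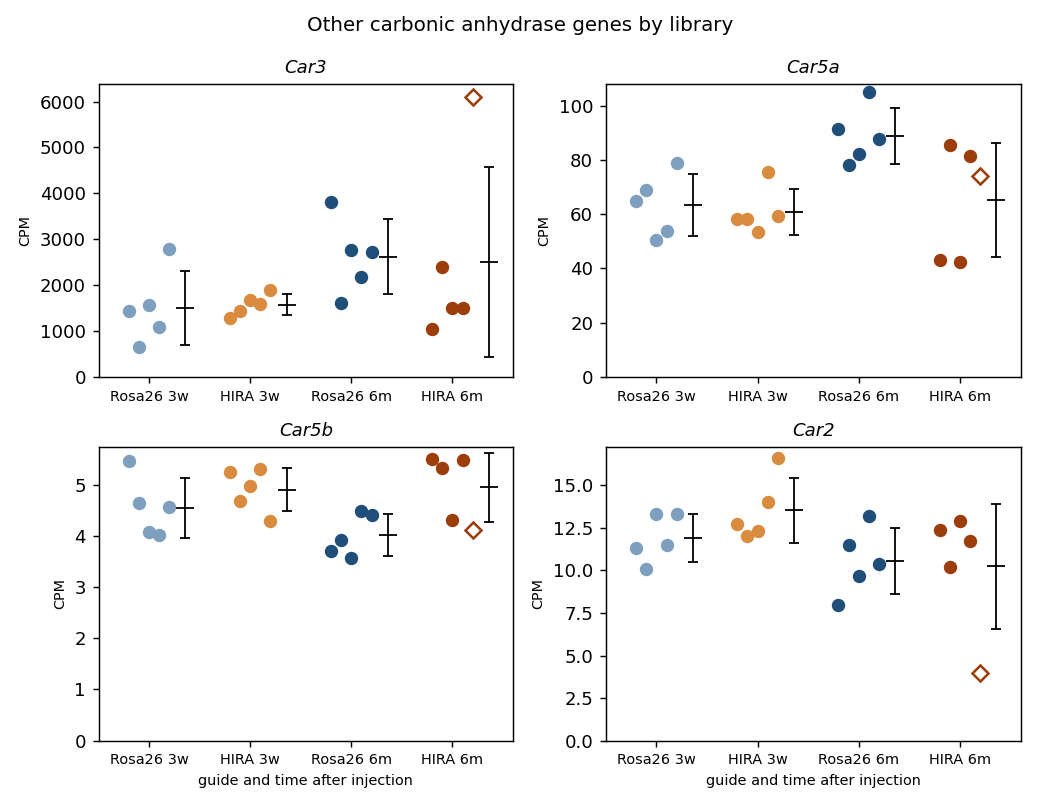
Levels in CPM (y axes from 0) of Car3, Car5a, Car5b and Car2 in each library, with the group mean ± SD (n = 5) beside the points and HIRA 6m replicate 5 as an open diamond. That library is the highest for Car3, at 6107 CPM, and the lowest for Car2, at 3.96 CPM, while Car5a in HIRA 6m splits into 42.4 and 43.2 against 74.1 to 85.5 CPM.

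Of the remaining members, Car8, which binds the inositol trisphosphate receptor, had overlapping levels in all 4 groups. Its level ran from 83.0 to 122 CPM in Rosa26 3w, 92.8 to 106 in HIRA 3w, 79.9 to 110 in Rosa26 6m and 64.0 to 99.6 in HIRA 6m, with log2 fold changes of -0.01 ± 0.12 at 3 weeks and -0.16 ± 0.12 at 6 months (-0.20 without HIRA 6m replicate 5). Car9, a transmembrane enzyme known as a target of hypoxia-inducible factor, had 3 to 23 counts a library. Its differences, 0.48 ± 0.46 at 3 weeks and 0.17 ± 0.44 at 6 months (0.34 without HIRA 6m replicate 5), had 95% intervals that held 0. The antisense gene Gm12454 shares 214 exon bases with Car9 and had 101.1% as many counts, so the reads of Car9 could include some of its partner.

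The genes beside Car14 were examined because Car14 overlaps one of them. Aph1a, which encodes a subunit of gamma-secretase, runs into the 3′ end of Car14 on the opposite strand, shares 445 exon bases with it (17.5% of the Car14 exon bases) and had 117.1% as many counts. Aph1a was at 37.9 to 45.2 CPM in Rosa26 3w and at 39.6 to 47.9 in HIRA 3w, a log2 fold change of 0.09 ± 0.08 (adjusted p = 0.863), and at 6 months its log2 fold change was -0.17 ± 0.08 (adjusted p = 0.330, and -0.14 without HIRA 6m replicate 5). The part of Aph1a reads in the Car14 counts was not tested. In the controls it was higher at 6 months than at 3 weeks by 0.34 ± 0.08, short of the test by edgeR (adjusted p = 0.0701), beside 0.60 for Car14. This Aph1a difference passed without HIRA 6m replicate 5 (adjusted p = 0.0473), by DESeq2 (0.00584) and with a minimum of 1 CPM in 5 libraries (0.0374). Of 9 genes within 50000 bases of Car14, 1 passed at 3 weeks, Ciart, and none at 6 months. Over all genes 0.197% and 1.31% passed. Ciart also belongs to the clock genes, which were listed with their movement at 3 weeks known. The other 8 had log2 fold changes of -0.18 (Anp32e) to 0.36 (Gm26594, at 33 counts in all) at 3 weeks.

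Ciart, a repressor in the circadian clock, lies 15517 bases from Car14 (chr3:95878503-95882251, minus strand) and passed at 3 weeks. It was at 0.456, 0.449, 0.416, 0.676 and 0.279 CPM in Rosa26 3w, from 6 to 15 counts. It was at 3.46, 3.70, 1.31, 15.1 and 4.72 CPM in HIRA 3w, from 27 to 344 counts. All 5 HIRA libraries were above all controls, with a log2 fold change of 3.62 ± 0.71 (adjusted p = 0.0379 by edgeR). Leaving out any one of Rosa26 3w replicates 1 to 5, HIRA 3w replicates 1, 2, 4 or 5, or Rosa26 6m replicate 4 ended the call, with adjusted p of 0.0521 to 0.126, and so did limma-voom (adjusted p = 0.288). The promoters of Car14 and Ciart are shown because these were the 2 neighbours past the test at 3 weeks. They are RefSeq sequences (GRCm38.p6) of the 250 bases before each gene's start, at chr3:95904686-95904935 and chr3:95882229-95882478, both on the minus strand, with CACGTG, the canonical E-box that clock factors bind, in capitals.
Car14: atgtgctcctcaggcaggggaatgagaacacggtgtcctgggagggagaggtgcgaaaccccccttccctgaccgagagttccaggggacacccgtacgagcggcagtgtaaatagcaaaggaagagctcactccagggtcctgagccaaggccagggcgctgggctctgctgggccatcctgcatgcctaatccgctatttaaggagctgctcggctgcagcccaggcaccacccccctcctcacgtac
Ciart: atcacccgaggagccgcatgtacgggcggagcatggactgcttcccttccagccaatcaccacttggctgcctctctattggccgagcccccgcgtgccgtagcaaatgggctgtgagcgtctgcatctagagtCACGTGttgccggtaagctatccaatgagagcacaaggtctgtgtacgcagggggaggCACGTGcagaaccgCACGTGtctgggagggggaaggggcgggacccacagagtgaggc
The Ciart promoter held 3 copies of CACGTG, at 116, 58 and 44 bases before the start, and the Car14 promoter held none. Of 32851 mouse promoters of this length, 6.02% held at least 1. Neither promoter held TTATGTAA or TTACGTAA, the D-box forms searched, which 0.819% and 0.113% of promoters held. Neither held TATAAA (12.4%), and CCAAT was found 3 times in Ciart and not in Car14 (33.8%). Motifs were searched on both strands and do not overlap one another. RefSeq promoters were found for 5 of the 10 members, and CACGTG was in none of them.

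Clock genes, to which Ciart belongs, were listed because earlier results of these data showed them moving at 3 weeks. Their counts at 3 weeks and in the control comparison are therefore descriptions and support nothing. Of 15 tested, 5 were higher with the Hira guide at 3 weeks, none lower and 10 not past the test, where 0.197% of all genes passed: Dbp, a clock output factor (log2 fold change 4.55 ± 0.79), Ciart (3.62 ± 0.71), Per3 (2.56), Nr1d2 (1.19) and Tef (1.47). Of the other 10, Npas2 and Nfil3 were lower in every HIRA 3w liver than in every control. Groups did not overlap in 2.69% of all genes. Npas2 was at 13.9 to 18.8 CPM in Rosa26 3w and 1.44 to 10.9 in HIRA 3w, and Nfil3 at 60.2 to 77.3 and 15.8 to 47.5. Mean Arntl was 31.7 CPM in Rosa26 3w and 15.5 in HIRA 3w, and mean Cry1 23.8 and 14.6, with groups that overlapped. None of the 15 passed at 6 months by edgeR, and 1 did by DESeq2. In the controls 5 of the 15 were higher at 6 months than at 3 weeks, where 0.324% of all genes passed: Dbp (4.40 ± 0.79), Per3 (2.69), Tef (1.35), Nr1d2 (1.02) and Cry2 (0.86). Both comparisons share the Rosa26 3w libraries, and each count of 5 became 0 when certain single libraries were left out, Rosa26 3w replicate 1, 2 or 4 or HIRA 3w replicate 4 or 5 for the first and Rosa26 3w replicate 1, 3 or 4 or Rosa26 6m replicate 3 or 4 for the second. Dbp was at 1.52, 1.60, 2.40, 1.76 and 3.54 CPM in Rosa26 3w. It was at 47.6, 38.7, 9.05, 104 and 55.2 CPM in HIRA 3w. All 5 HIRA libraries were above all controls at 3 weeks. At 6 months it was at 32.5, 20.8, 95.1, 63.5 and 18.1 CPM in Rosa26 and 3.75, 40.4, 20.5, 110 and 115 CPM in HIRA, which overlapped. The hour at which livers were taken is not given in the sources used here, and the part of the clock genes in the Car14 difference was not tested.

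**Figure D5:**
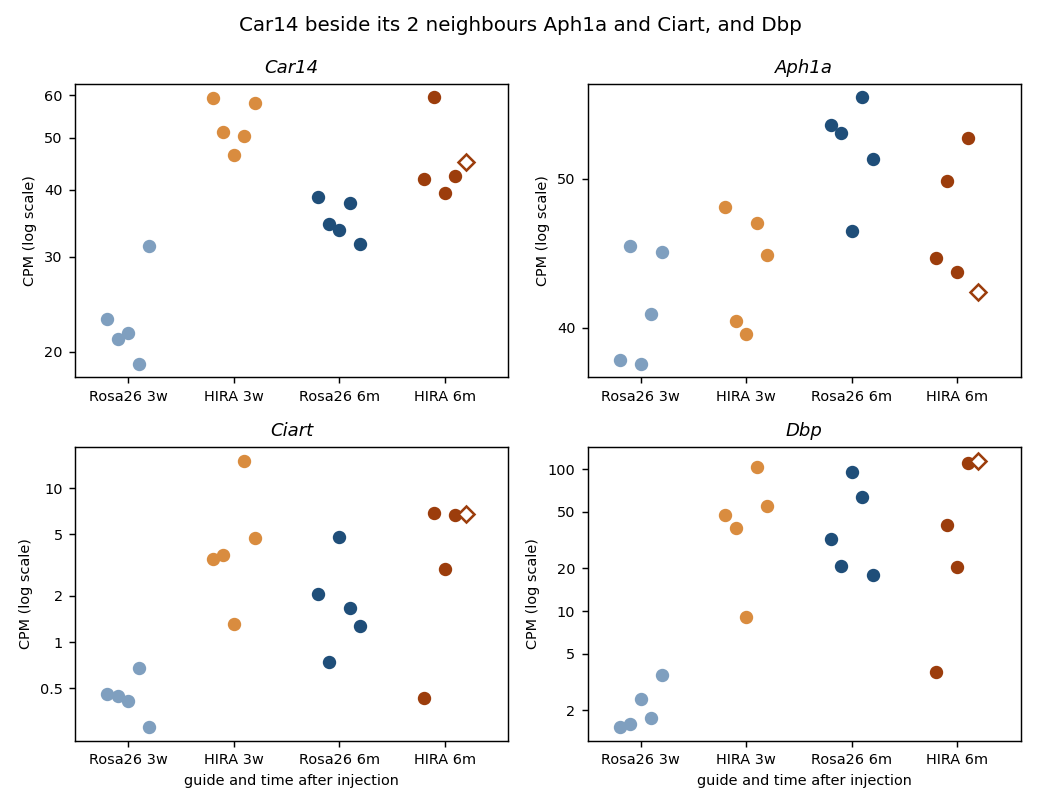
Levels in CPM on log scales, each panel with its own range, of Car14, its neighbours Aph1a and Ciart, and the clock output gene Dbp in each library, with HIRA 6m replicate 5 as an open diamond. All Rosa26 3w libraries lie below all others for Car14 and Dbp, and for Ciart below all others but HIRA 6m replicate 1 (0.430), while Aph1a stays within 37.9 to 56.5 CPM.

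Over the 20 libraries the named genes most like Car14, by Pearson correlation of log2 CPM among 12902 genes with a mean of at least 1 CPM, were Akr1c19 (r = 0.85), Zfp467 (0.84), Cnn3 (0.83), Ipmk (0.83) and Gsta4 (0.81). All 20 livers include the 4 groups, so group differences enter these values, and after the group means were taken out the correlations were 0.51, 0.52, 0.57, 0.58 and 0.36. Akr1c19, an aldo-keto reductase gene, had group means of 5.55, 6.32, 6.11 and 6.30 log2 CPM in Rosa26 3w, HIRA 3w, Rosa26 6m and HIRA 6m, beside 4.52, 5.73, 5.14 and 5.50 for Car14. Gsta4, a glutathione transferase gene, had 5.82, 6.62, 6.15 and 6.63. Among clock genes Nr1d1 and Nr1d2 had r = 0.77, Dbp 0.75 and Ciart 0.73, which became 0.64, 0.36, 0.32 and 0.12 without the group means. Tef had 0.75, Per3 0.70, Hlf 0.52, Cry2 0.49, Per2 0.31 and Per1 0.26. Negative values were found for Npas2 (-0.65), Nfil3 (-0.64), Arntl (-0.56), Cry1 (-0.46) and Clock (-0.43). Without the group means these became -0.11, 0.01, -0.10, -0.17 and -0.20. The other members with at least 1 CPM had 0.03 (Car2) to 0.37 (Car1), and without the group means Car5a and Car8 had 0.58, Car1 0.55 and Car2 0.02. These are descriptions over libraries that share their groups, and carry no test.

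The 6 carbonic anhydrase genes outside the list were sparse. Car6, Car10 and Car12 had 0 to 2 counts a library and were not tested, and none of the 3 others passed by edgeR with all libraries. Car15, a lipid-anchored surface enzyme, was at 6, 9, 12, 8 and 10 counts in Rosa26 3w and 14, 9, 38, 17 and 32 in HIRA 3w. At 6 months it had 9, 3, 6, 9 and 9 counts in Rosa26 and 26, 19, 16, 20 and 14 in HIRA. The 6-month groups did not overlap, with a log2 fold change of 1.38 ± 0.37 (adjusted p = 0.0675 by edgeR), and at 3 weeks it was 1.26 ± 0.36 (adjusted p = 0.191). By DESeq2 the adjusted p of Car15 at 6 months was 0.0235. By edgeR it was 0.0631 without HIRA 6m replicate 5 (log2 fold change 1.43) and 0.0499 without HIRA 3w replicate 2 (1.37). Car11, a relative without enzyme activity, had 0.70 ± 0.33 at 3 weeks and 0.74 ± 0.31 at 6 months (0.47 without HIRA 6m replicate 5), neither past the test, and Car7 had 0.19 and -0.01.

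Among the genes that move or use bicarbonate, 2 passed the test with the Hira guide by edgeR. None of 15 bicarbonate transporter genes tested (of 16) passed in any comparison, with median log2 fold changes of 0.12 at 3 weeks and -0.10 at 6 months. Slc4a4, the sodium bicarbonate cotransporter that partners with carbonic anhydrases in several tissues, was lower in every HIRA 3w liver (71.3 to 84.3 CPM) than in every control (87.1 to 111), by a log2 fold change of -0.34 ± 0.10 that did not pass (adjusted p = 0.223). With 2.69% of all genes not overlapping, a pair of other transporters were higher in every HIRA 3w liver than in every control and did not pass either, Slc4a10 at 0.477 to 0.876 CPM beside 0.250 to 0.465 (1.01 ± 0.27, adjusted p = 0.151) and Slc4a2 at 37.0 to 39.4 CPM beside 33.0 to 36.2 (0.14 ± 0.07, adjusted p = 0.551). None of 6 proton exchanger and lactate carrier genes tested (of 7) passed. Of 8 genes for enzymes that fix bicarbonate, none passed at 3 weeks and 2 fell with the Hira guide at 6 months, where 0.612% of all genes did. These were Mccc1 and Mccc2, which encode the 2 subunits of methylcrotonyl-CoA carboxylase of leucine breakdown. Mccc1 was at 70.3, 60.7, 59.5, 63.2 and 67.7 CPM in Rosa26 6m and 35.4, 53.2, 50.6, 50.4 and 47.3 in HIRA 6m, a log2 fold change of -0.44 ± 0.09 (adjusted p = 0.0204 by edgeR). Mccc2 was at 73.7, 69.9, 69.2, 84.6 and 68.1 CPM in Rosa26 6m and 45.4, 60.4, 44.3, 54.9 and 55.3 in HIRA 6m, a log2 fold change of -0.49 ± 0.10 (adjusted p = 0.0263). Neither pair of groups overlapped, as in 3.15% of all genes. Mean Mccc1 in log2 CPM was 5.60 and 6.01 in Rosa26 at 3 weeks and 6 months and 5.60 and 5.55 in HIRA, and mean Mccc2 was 5.86 and 6.19 in Rosa26 and 5.70 and 5.69 in HIRA, so the controls were higher at 6 months while the HIRA means lay close together. In the controls the log2 fold change with time was 0.40 ± 0.09 for Mccc1 (adjusted p = 0.0528), 0.33 ± 0.10 for Mccc2 (adjusted p = 0.164) and 0.45 ± 0.09 for Pcca (adjusted p = 0.0279, the only one past the test, lost with FPKM and without any one of Rosa26 3w replicates 1 to 4 or Rosa26 6m replicates 1, 3 or 4). The change of the guide difference with time did not pass for any of them (adjusted p of 0.614 to 0.737). Both Mccc genes remained past the test without HIRA 6m replicate 5, at log2 fold changes of -0.44 and -0.51 (adjusted p = 0.0246 and 0.0235). Both were lost without Rosa26 6m replicate 1 or 4, in a fit of the 6-month libraries alone (adjusted p = 0.142 and 0.112) and with FPKM (adjusted p = 0.0985 and 0.0638). Mccc2 was also lost without HIRA 6m replicate 1 or 3 (adjusted p = 0.0616 and 0.0528). The log2 fold change of Pcca, of propionyl-CoA carboxylase, was -0.34 ± 0.09 at 6 months (adjusted p = 0.0526). It passed by DESeq2 (adjusted p = 0.00684), by limma-voom (0.0464) and with a minimum of 1 CPM in 5 libraries (0.0245), and had 0.628 with FPKM. By edgeR it also passed without HIRA 6m replicate 5 (log2 fold change -0.38, adjusted p = 0.0346), HIRA 6m replicate 2 (0.0372) or Rosa26 3w replicate 5 (0.0483). Over all alternatives run, 0 to 3 of the 8 enzyme genes passed at 6 months. The median over the 8 enzyme genes at 6 months was -0.31 on the log2 scale, beside 0.03 over all genes. Cps1, which takes mitochondrial bicarbonate into the urea cycle, had a log2 fold change of 0.20 ± 0.17 at 3 weeks and -0.26 ± 0.17 at 6 months, and Pcx, pyruvate carboxylase, -0.30 ± 0.13 and -0.28 ± 0.13, none past the test. Without HIRA 6m replicate 5 the 6-month values were -0.21 for Cps1 and -0.39 for Pcx.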

How the data were processed

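Livers were profiled by polyA RNA-seq from 20 directional libraries of mouse liver, 5 in each of 4 groups taken from the sample labels. Per the labels, reads were aligned to mm10 with STAR, and HTSeq and Cufflinks are listed; the study's methods name HOMER for counting. Versions and use of strand in counting are not stated in the labels. The authors deposited 2 tables, of raw counts and of FPKM. In the FPKM table the deposited values were blank for Car5a in every library and for 28812 cells with counts, so FPKM served only as an alternative, with blanks set to 0 and a pseudocount of 1. No deposited column was left unused for lack of a sample.

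Genes with at least 10 counts in all (22867) were fitted together over the 20 libraries with edgeR 4.0.16 (TMM, quasi-likelihood F test, Benjamini-Hochberg adjustment, threshold 0.05) in R 4.3.3. The authors used DESeq2. CPM values use TMM library sizes, and log2 CPM a prior count of 2. Fold changes are HIRA over Rosa26, or 6 months over 3 weeks. Errors of folds are SE, and those of levels SD with n = 5. The labels do not say that libraries came from separate mice beyond their numbering, so p-values measure the spread between libraries. No 2 libraries of a group agreed within sampling noise (chi-square per gene at least 15.1). Named genes were the members, Hira, the fixed lists, genes within 50000 bases of Car14 and the 5 named genes most like it. The members and lists were chosen with earlier results of these data known. Alternatives were DESeq2 1.42.0 (size factors and test), limma 3.58.1 (voom and FPKM), other count filters, the libraries of one comparison alone, a replicate block and each library left out. On data simulated for the 6-month comparison (22867 genes), 76 of 100 genes changed by 1 log2 and 96 of 100 changed by 2 were recovered, with 9 other calls. The changed genes all had a mean of at least 1 CPM. Changes under 1 log2, and changes in genes as low as Car9 and Car13, were not simulated. Lengths and positions come from GENCODE M21 (98.7% of identifiers matched). No protein sequences are shown.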

Additional observations from a re-analysis of the deposited data

Results flagged for a closer look

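In 36 groups of 5 libraries, 9 members in 4 groups, 3 single libraries lay further from the others than a 5% Dixon criterion allows, and chance alone picks out about 1 group in 20. Car2 in HIRA 6m replicate 5 was at 2.02 log2 CPM (78 counts), with the other 4 at 3.37 to 3.69, and this is the library whose Xist and Y-linked counts went against its label. Car9 in HIRA 3w replicate 5 was at -2.09 log2 CPM, with the others at -0.74 to -0.60, and rests on 3 counts. Car13 in Rosa26 3w replicate 3 was at -0.35 log2 CPM, with the others at -1.76 to -1.35, and rests on 15 counts.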

How the results depend on the processing

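The Car14 difference at 3 weeks, given as a description, kept a log2 fold change of 1.16 to 1.21 under the other tools, filters and scalings and of 1.13 to 1.32 with single libraries left out. At 6 months it was 0.36 to 0.38 and 0.26 to 0.42, with adjusted p of 0.0829 to 0.226 and 0.0829 to 0.279, so it did not pass over all genes in any of them; the exact permutation test of Car14 alone gave 0.36 with p = 0.00794, unadjusted for the choice of gene. The change with time was -0.85 to -0.78 and -0.95 to -0.75 (adjusted p 0.0804 to 0.673 and 0.0848 to 0.909). The control comparison in time left 0 members past the test, in place of 1, with FPKM (Car14 0.54, adjusted p = 0.0880) and with single libraries left out (0 to 1 members, Car14 0.54 to 0.74); fewer libraries or another unit enter there, and the cause was not tested.

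Several members with differences near 0 changed sign. At 3 weeks Car8 was 0.03 with FPKM, and with single libraries left out Car3 ran from -0.12 to 0.42, Car5a from -0.15 to 0.03, Car8 from -0.07 to 0.07 and Car13 from -0.03 to 0.56. At 6 months Car1 ran from -0.01 to 0.39, Car2 from -0.13 to 0.17, Car3 from -0.70 to 0.14 and Car9 from -0.24 to 0.34. In the control comparison in time Car1 ran from -0.46 to 0.13, Car8 from -0.08 to 0.07 and Car13 from -0.15 to 0.63. Alternatives chosen after seeing the data covered genes outside the list. Dbp at 6 months was -0.22 with limma-voom, -0.05 with FPKM, -0.02 with the replicate block and -0.08 to 0.79 with single libraries left out, and Hira at 6 months was 0.03 with FPKM. Clock genes past the test at 3 weeks numbered 0 (FPKM) to 8 (the 3-week libraries alone), beside 5, and 0 to 8 in the control comparison in time, and at 6 months 1 by DESeq2 beside 0. The control difference of Aph1a in time had an adjusted p of 0.0492 with the replicate block.

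Counts over all genes moved more than those over members. At 6 months 299 genes passed by edgeR, 895 by DESeq2, 96 with FPKM, 517 with the stricter filter and 0 in a fit of the 6-month libraries alone, and at 3 weeks 45, 228, 13, 90 and 149. Replicate numbers are shared between groups, but the correlations of same-numbered libraries were 0.00 to 0.30 at 3 weeks and -0.12 to 0.30 at 6 months, so the numbers do not pair the livers. With a replicate block Car14 was 1.19 (adjusted p = 0.000338), 0.36 (0.146) and -0.83 (0.501) for 3 weeks, 6 months and their difference, and the block changed no call on a member. Car4, Car9 and Car13 rest on at most 23 counts a library, so counting error is large in them.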
